A study of Zea mays with 18 samples.

Results

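Maize roots take up nitrate from dilute solution through transporters of the NRT2 family, and the data below concern the 2 genes Zm00001d054057 and Zm00001d054060, taken here as the neighbouring maize genes NRT2.1 and NRT2.2. They were chosen by identifier, with earlier results of these data known. Both were found among the 41632 genes of the deposited count and FPKM tables. The tables give identifiers only, so which of the genes is NRT2.1 and which is NRT2.2 is not stated here. In the RefSeq table for the later maize assembly NAM-5.0, nrt2.1 and nrt2.2 lie on the same chromosome with 0 genes starting between them, but 0 identifiers of the files are listed there.

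RNA-seq was carried out on roots of 10-day-old seedlings after 48 h in modified Hoagland solution with 0.15 mM nitrate (low, labelled N-) or 15 mM nitrate (high, labelled N+). The 3 genotypes were grown under both supplies: the inbred line B73 as wild type, zmnrl1-m, labelled as a mutant, and ZmNRL1-OE, labelled as an overexpression line. Each of the 6 groups had 3 libraries, 18 in all. The series title presents ZmNRL1, a protein with DUF630 and DUF632 domains, as promoting the response of maize to nitrogen stress. The kind of mutation, the promoter of the transgene, the number of transformation events and the parental background of the lines were not given in the sources used here. The level of ZmNRL1 itself and the root identity of the samples were not checked, because no source used here ties gene names to the identifiers.

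NRT2 proteins are plasma membrane carriers that move nitrate into root cells together with protons and form the main part of the high-affinity uptake system. In Arabidopsis and barley they need a small partner protein, NAR2 (also named NRT3), to reach the membrane and transport nitrate. In Arabidopsis roots NRT2.1 transcript is induced by nitrate, rises when plants run short of nitrogen, and is repressed when nitrogen is ample. The comparisons below ask how the maize pair responds to nitrate supply in each genotype, and whether the lines differ from B73.

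Total counts per library lay between 21905877 and 39003607. Zm00001d054057 received 1173 to 19058 reads and Zm00001d054060 879 to 23749 reads in a library, so counting error was small beside the spread between libraries. Levels are given as CPM, counts scaled to library size after TMM normalization. The FPKM values of both genes imply one common length of 1578.5 bases, so CPM of the 2 genes can be compared with each other without a length correction. Nothing says that replicates came from separate cultures, so p-values measure the spread between these libraries, which may in part be technical. Whole roots were sampled, so fewer cells of a type and less RNA per cell cannot be told apart. The 2 genes were assigned reads separately, and how reads matching both were treated is not given in the sources used here. A division of reads between close copies could therefore affect each gene's own level, and the summed reads are given beside the separate values.

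In B73 both genes were several-fold higher at low nitrate. Zm00001d054057 stood at 178, 279 and 377 CPM in the 3 low-nitrate libraries and at 33.4, 53.5 and 56.3 CPM in the 3 high-nitrate libraries. Zm00001d054060 stood at 129, 211 and 258 CPM at low and at 43.4, 68.2 and 62.7 CPM at high nitrate. For both genes every low-nitrate library exceeded every high-nitrate library of B73, as was the case, in either direction, for 33.5% of the 27134 genes tested. Replicate 1 was the lowest library of its group for both genes under both supplies.

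The rise in B73 was 5.83-fold for Zm00001d054057, from 47.7 ± 12.5 to 278 ± 99.2 CPM (SD, n = 3), with a log2 fold change of 2.54 ± 0.30 (SE) and an edgeR quasi-likelihood adjusted p of 3.56e-05. Zm00001d054060 rose 3.43-fold, from 58.1 ± 13.0 to 199 ± 65.0 CPM, with a log2 fold change of 1.78 ± 0.27 and an edgeR adjusted p of 0.000431. In this comparison 14.7% of the tested genes were called at an adjusted p under 0.05. By absolute log2 fold change 251 genes exceeded Zm00001d054057 and 647 exceeded Zm00001d054060. In rank by mean FPKM, Zm00001d054057 moved from 3850 of 30897 genes above 0 at high nitrate to 443 of 30549 at low nitrate. Zm00001d054060 moved from rank 3103 to rank 674.

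**Figure D1:**
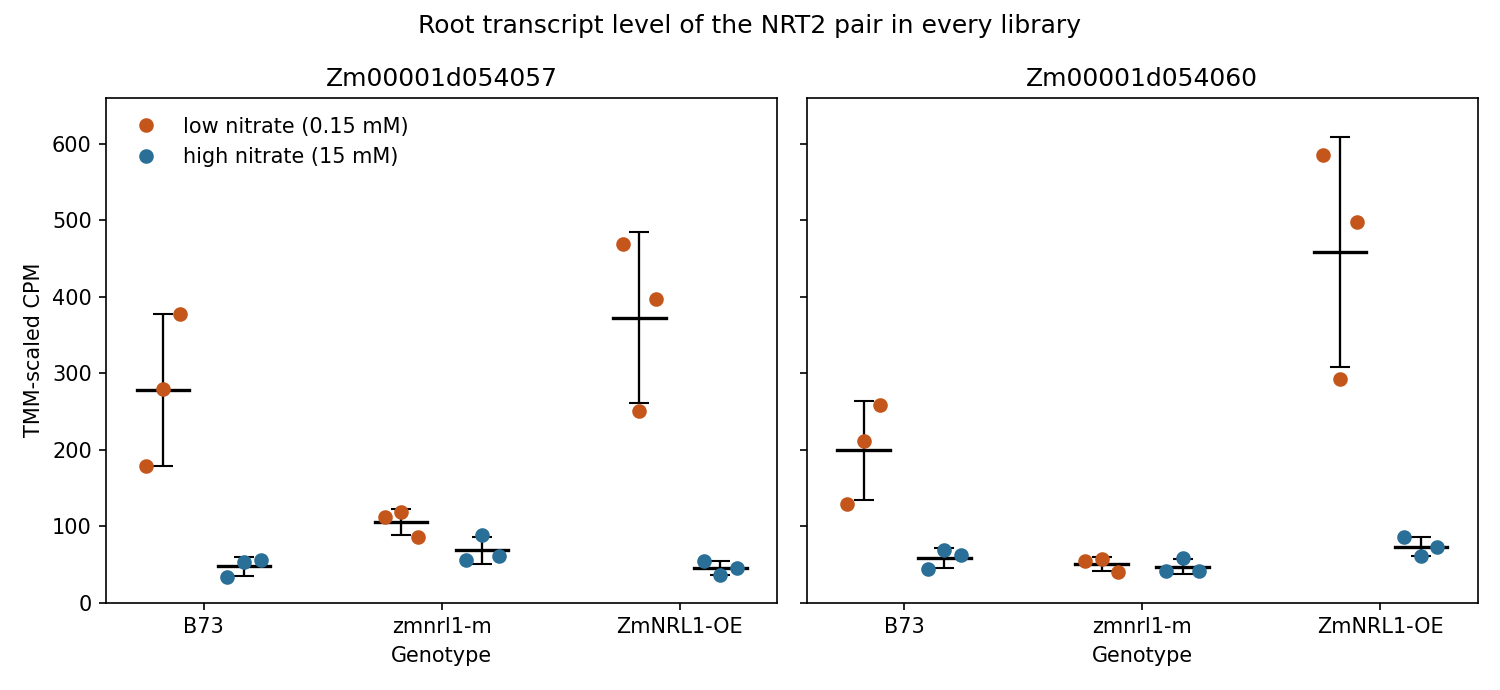
TMM-scaled CPM (vertical axis, linear, from 0) of each gene in the 18 root libraries by genotype (horizontal axis) and nitrate supply (colour); each point is a library, with the group mean (horizontal line) and SD (bar, n = 3). The low-nitrate points of B73 and ZmNRL1-OE stand clear of their high-nitrate points, while the points of zmnrl1-m lie between 39.9 and 118 CPM under both supplies.

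In zmnrl1-m neither gene was called for a change with nitrate supply. Zm00001d054057 stood at 112, 118 and 85.7 CPM at low and at 55.5, 88.6 and 60.5 CPM at high nitrate. The groups overlapped because the highest high-nitrate library, replicate 2, exceeded the lowest low-nitrate library, replicate 3. The fitted ratio of low to high nitrate was 1.54, with a log2 fold change of 0.62 ± 0.28 (SE), a 95% interval of 0.02 to 1.23 and an edgeR adjusted p of 0.144. This gene's unadjusted p was 0.0429, so a modest rise was not detectable after adjustment over all genes, and it is not shown to be absent.

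Zm00001d054060 stood in zmnrl1-m at 54.0, 57.3 and 39.9 CPM at low and at 41.7, 58.6 and 41.0 CPM at high nitrate. The libraries of both supplies were interspersed. The fitted ratio was 1.07, with a log2 fold change of 0.10 ± 0.27 (SE), a 95% interval of -0.48 to 0.67 and an edgeR adjusted p of 0.857. The upper end of that interval lies below the lower end of the interval in B73, 1.20. In zmnrl1-m 17.9% of the tested genes were called for nitrate supply.

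In ZmNRL1-OE both genes were again higher at low nitrate. Zm00001d054057 stood at 469.6, 250.2 and 398 CPM at low and at 54.6, 35.7 and 45.8 CPM at high nitrate. Zm00001d054060 stood at 585, 293 and 497 CPM at low and at 85.6, 60.9 and 72.5 CPM at high nitrate. No low-nitrate library of ZmNRL1-OE came near a high-nitrate library for either gene, and 38.5% of the tested genes had groups that did not overlap here. Replicate 2 was the lowest of its group for both genes under both supplies.

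Zm00001d054057 rose 8.21-fold in ZmNRL1-OE, from 45.4 ± 9.46 to 373 ± 112 CPM (SD, n = 3), a log2 fold change of 3.04 ± 0.30 (SE) with an edgeR adjusted p of 5.86e-06. Zm00001d054060 rose 6.28-fold, from 73 ± 12.4 to 458 ± 150.03 CPM, a log2 fold change of 2.65 ± 0.28 with an edgeR adjusted p of 1.08e-05. Of the tested genes 23.9% were called here. By absolute log2 fold change 97 genes exceeded Zm00001d054057 in ZmNRL1-OE and 174 exceeded Zm00001d054060. At low nitrate the genes ranked 212 and 147 by mean FPKM among 31421 genes above 0 in ZmNRL1-OE, and Zm00001d054060 was the more abundant of the pair.

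**Figure D2:**
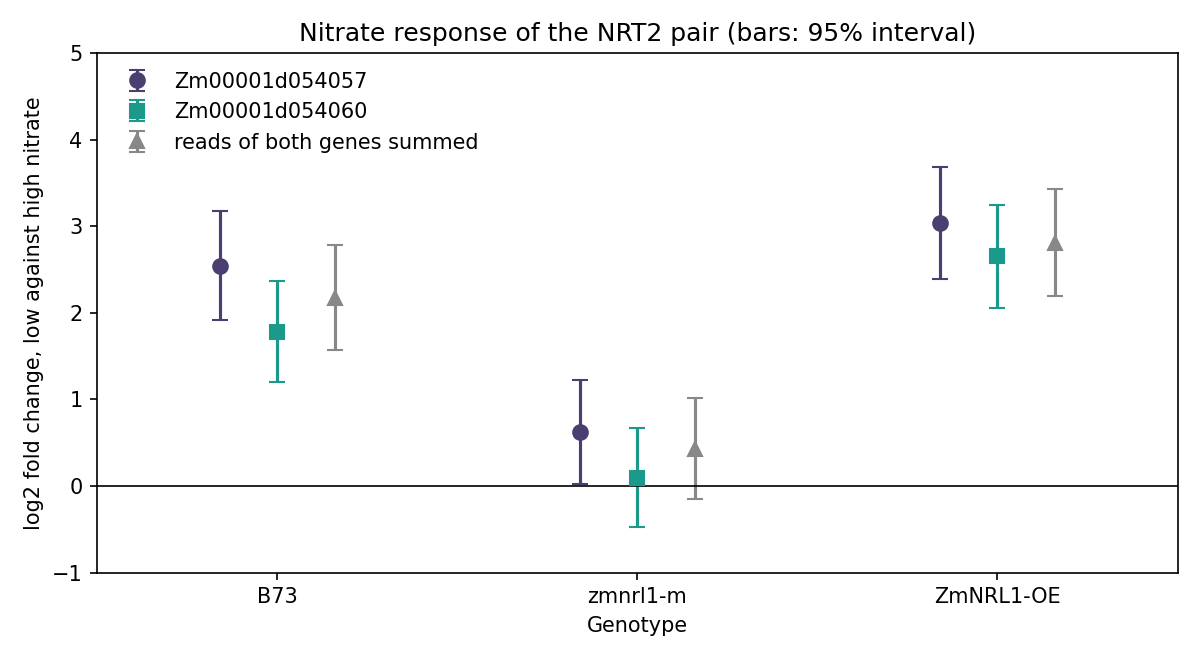
Log2 fold change of low against high nitrate (vertical axis) in each genotype (horizontal axis) for Zm00001d054057 (circles), Zm00001d054060 (squares) and their summed reads (triangles), from the edgeR fit; bars are 95% intervals. The 3 estimates lie between 1.78 and 2.54 for B73, between 0.10 and 0.62 for zmnrl1-m, and between 2.65 and 3.04 for ZmNRL1-OE.

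The nitrate response of both genes was smaller in zmnrl1-m than in B73, tested as an interaction. For Zm00001d054057 the log2 responses differed by -1.92 ± 0.40 (SE, edgeR adjusted p = 0.015), which is a 3.78-fold smaller ratio of low to high nitrate in zmnrl1-m. For Zm00001d054060 they differed by -1.68 ± 0.38 (edgeR adjusted p = 0.0204), a 3.21-fold smaller ratio. This difference was called in 8.93% of the tested genes. The call for Zm00001d054060 rested on single libraries, since its adjusted p was 0.0559 without low-nitrate replicate 3 of B73, 0.0615 without low-nitrate replicate 3 of zmnrl1-m and 0.0583 when high-nitrate replicate 2 of that line was left out. Zm00001d054057 kept its call without any one library, with adjusted p of 0.00689 to 0.0466.

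ZmNRL1-OE responded more than zmnrl1-m as well. The log2 responses differed by 2.41 ± 0.41 (SE) for Zm00001d054057 and by 2.55 ± 0.39 for Zm00001d054060, with edgeR adjusted p of 0.00452 and 0.00321. In this contrast 16.4% of the tested genes were called. It shares the zmnrl1-m libraries with the contrast of zmnrl1-m and B73, so the values are not independent of each other.

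The responses of ZmNRL1-OE and B73 were not shown to differ. The log2 response was larger in ZmNRL1-OE by 0.49 for Zm00001d054057 (95% interval -0.35 to 1.34) and by 0.87 for Zm00001d054060 (0.07 to 1.67). The edgeR adjusted p were 0.953 and 0.773, with unadjusted p of 0.235 and 0.0346. Among all tested genes 0.0479% were called for this difference, and the intervals leave room for a larger response in ZmNRL1-OE.

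At low nitrate zmnrl1-m held less transcript of both genes than B73. Zm00001d054057 was 2.64-fold lower in zmnrl1-m, 105 ± 17.2 against 278 ± 99.2 CPM (SD, n = 3), with a log2 difference of -1.40 ± 0.29 (SE) and an edgeR adjusted p of 0.000804. Zm00001d054060 was 3.96-fold lower, 50.4 ± 9.22 against 199 ± 65.0 CPM, with a log2 difference of -1.98 ± 0.28 and an edgeR adjusted p of 2.26e-05. The groups did not overlap for either gene, as for 53.1% of the tested genes. These calls stand against a wide genotype difference, since zmnrl1-m and B73 differed at low nitrate in 44.8% of the tested genes.

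ZmNRL1-OE differed from B73 at low nitrate in one of the 2 genes. Zm00001d054060 was 2.30-fold higher in ZmNRL1-OE, with a log2 difference of 1.20 ± 0.27 (SE), no overlap between the groups and an edgeR adjusted p of 0.00239. Zm00001d054057 differed by 0.42 ± 0.28, with a 95% interval of -0.17 to 1.02, overlapping groups and an edgeR adjusted p of 0.266. Between these genotypes 34.8% of the tested genes were called, and 45.1% had groups that did not overlap. With the reads of both genes summed, the pair was 1.74-fold higher in ZmNRL1-OE, a log2 difference of 0.80 ± 0.28 with an edgeR adjusted p of 0.0329, though the groups of summed CPM overlapped.

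Between the lines both genes differed at low nitrate. ZmNRL1-OE exceeded zmnrl1-m 3.54-fold in Zm00001d054057 and 9.10-fold in Zm00001d054060, with log2 differences of 1.82 ± 0.29 and 3.19 ± 0.29 (SE) and edgeR adjusted p of 6.1e-05 and 1.36e-07. In this contrast 57.9% of the tested genes were called.

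At high nitrate no genotype difference in either gene was called. Between zmnrl1-m and B73 the log2 differences were 0.52 for Zm00001d054057 (95% interval -0.09 to 1.12) and -0.30 for Zm00001d054060 (-0.87 to 0.27). Between ZmNRL1-OE and B73 they were -0.07 (-0.68 to 0.53) and 0.33 (-0.24 to 0.90). The edgeR adjusted p lay between 0.159 and 0.895, while 42.4% and 27.2% of the tested genes were called in the 2 comparisons.

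Between the 2 lines at high nitrate neither gene was called. The fitted log2 difference, ZmNRL1-OE minus zmnrl1-m, was -0.59 ± 0.29 (SE, 95% interval -1.19 to 0.016) for Zm00001d054057 and 0.63 ± 0.27 (0.057 to 1.20) for Zm00001d054060. The groups did not overlap for either gene, and the edgeR adjusted p were 0.112 and 0.0732, where 41.6% of the tested genes were called and 52.2% had groups that did not overlap. Of 28 alternative settings, 6 gave a call for Zm00001d054060 and 1 for Zm00001d054057, with adjusted p over all settings of 0.0152 to 0.932 and 0.0448 to 0.932. Zm00001d054060 passed the threshold with DESeq2, at an adjusted p of 0.0461. It also passed with library totals alone (0.0432), and both genes passed when the fit held only these 2 groups (0.0448 and 0.0152). The adjusted p of Zm00001d054060 was 0.0464 without high-nitrate replicate 2 of zmnrl1-m, 0.0462 without low-nitrate replicate 1 of B73 and 0.0378 without low-nitrate replicate 2 of ZmNRL1-OE, and 0.0946 with the replicate block. With the reads of both genes summed the log2 difference was 0.037 (adjusted p = 0.932).

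The summed reads of both genes rose at low nitrate in B73 and ZmNRL1-OE and were not called in zmnrl1-m. The sum rose 4.51-fold in B73, from 106 ± 25.1 to 478 ± 164 CPM (SD, n = 3), and 7.02-fold in ZmNRL1-OE, from 118 ± 21.8 to 831 ± 262 CPM. In zmnrl1-m the sum was 115 ± 27.7 CPM under high and 156 ± 26.4 CPM under low supply. The log2 fold change of the sum was 2.17 ± 0.29 for B73, 2.81 ± 0.29 for ZmNRL1-OE and 0.43 ± 0.28 for zmnrl1-m (SE). The edgeR adjusted p were 9.83e-05, 8.65e-06 and 0.311. The summed response was smaller in zmnrl1-m than in B73 by 1.74 on the log2 scale (-1.74 ± 0.39, edgeR adjusted p = 0.0196). At high nitrate the 3 genotypes had means of summed CPM between 106 and 118.

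The order of the 6 group means differed between the genes. Neighbours were set by this observed order, so the p-values of pairs not compared above are descriptive. For Zm00001d054057 the order ran from ZmNRL1-OE at low nitrate through B73 at low nitrate and zmnrl1-m at low nitrate to the high-nitrate groups of zmnrl1-m, B73 and ZmNRL1-OE. The only neighbours in this order that differed beyond their spread were the low-nitrate groups of B73 and zmnrl1-m, with the edgeR adjusted p of 0.000804 given above. For the other neighbours it lay between 0.144 and 0.895.

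For Zm00001d054060 the order was ZmNRL1-OE at low nitrate, B73 at low nitrate, then the high-nitrate groups of ZmNRL1-OE and B73, then zmnrl1-m at low and at high nitrate. The first and second groups differed with an edgeR adjusted p of 0.00239. The next neighbours, B73 at low and ZmNRL1-OE at high nitrate, were apart by 1.45 ± 0.27 on the log2 scale (SE, edgeR adjusted p = 0.000541). That pair differs in both genotype and nitrate supply. The last 4 groups spanned means of 47.1 to 73 CPM, and no neighbours among them differed (edgeR adjusted p from 0.405 to 0.857). The mean of zmnrl1-m at low nitrate, 50.4 CPM, lay below the high-nitrate means of B73 and ZmNRL1-OE.

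The balance of the 2 genes within a library changed with both genotype and nitrate supply, with an SD of the log2 ratio within groups of 0.032 to 0.12. The ratio of Zm00001d054057 to Zm00001d054060 reads was 1.38, 1.33 and 1.46 in B73 libraries from low nitrate and 0.770, 0.784 and 0.899 in those from high nitrate. In zmnrl1-m it was 2.07, 2.06 and 2.15 at low and 1.33, 1.51 and 1.48 at high nitrate. In ZmNRL1-OE it was 0.802, 0.855 and 0.800 at low and 0.637, 0.586 and 0.633 at high nitrate. Thus Zm00001d054057 had more reads than its partner in all 6 libraries of zmnrl1-m and fewer in all 6 of ZmNRL1-OE, while in B73 the order of the genes turned with nitrate supply.

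The ratio needs no scaling between libraries, and 4 differences in it were tested by exact two-sided permutation within strata, with Benjamini-Hochberg adjustment over the 4. Low nitrate raised the log2 ratio by 0.57 ± 0.04 (SE) averaged over the genotypes, a 1.49-fold shift towards Zm00001d054057 (exact permutation p = 0.00025, adjusted p = 0.001). The shift was 0.77 ± 0.08 within B73, 0.54 ± 0.06 within zmnrl1-m and 0.40 ± 0.05 within ZmNRL1-OE, without overlap of the supplies in any of them. With 3 libraries a group, the exact permutation p of each was 0.1, the smallest possible. Ratios of other gene pairs were not computed, so no background share is given for the lack of overlap, here or between genotypes.

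Averaged over both supplies, the log2 ratio was higher in zmnrl1-m than in B73 by 0.71 ± 0.05 (SE), a 1.63-fold difference. In ZmNRL1-OE it was lower than in B73 by 1.5-fold, a log2 difference of -0.58 ± 0.05, and lower than in zmnrl1-m by 2.44-fold, a difference of -1.29 ± 0.04. The exact permutation p was 0.005 for each, the smallest possible with 400 assignments, and the adjusted p was 0.005. Without overlap at either nitrate level, the genotypes were ordered zmnrl1-m, B73, ZmNRL1-OE. Whether reads of the lines were assigned to the 2 genes in the same proportion as reads of B73 was not tested.

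**Figure D3:**
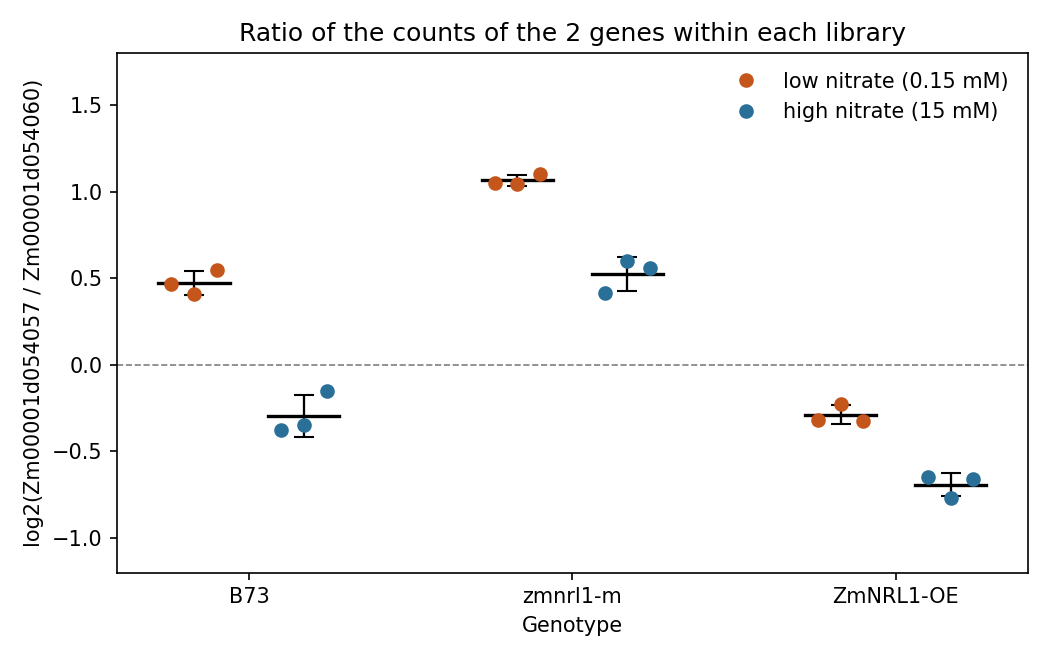
Log2 ratio of the read counts of Zm00001d054057 to Zm00001d054060 (vertical axis) within each library, by genotype (horizontal axis) and nitrate supply (colour), with group mean (line) and SD (bar, n = 3). Each low-nitrate group lies above the high-nitrate group of its genotype, and group means run from -0.69 in ZmNRL1-OE at high nitrate to 1.07 in zmnrl1-m at low nitrate.

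Within groups the 2 genes moved together from library to library. In 18 of 18 libraries both genes lay on the same side of their group mean, and the 2 deviations differed by at most 0.14 on the log2 scale. The deviations of Zm00001d054057 reached from -0.57 in replicate 1 to 0.50 in replicate 3 of B73 at low nitrate, and those of Zm00001d054060 were -0.57 and 0.43 in these libraries. The 2 genes share each library and its scaling, so this is a description of the libraries. Other pairs of genes were not compared in this way. The spread of the pair between replicates was above the median of genes of like abundance. In B73 at low nitrate the coefficient of variation was 35.7% for Zm00001d054057 and 32.6% for Zm00001d054060. The median over tested genes with a mean CPM within 2-fold of theirs was 8.67% and 8.56% there. In every group both genes lay above this median, with coefficients of variation of 16.3% to 35.7%.

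**Figure D4:**
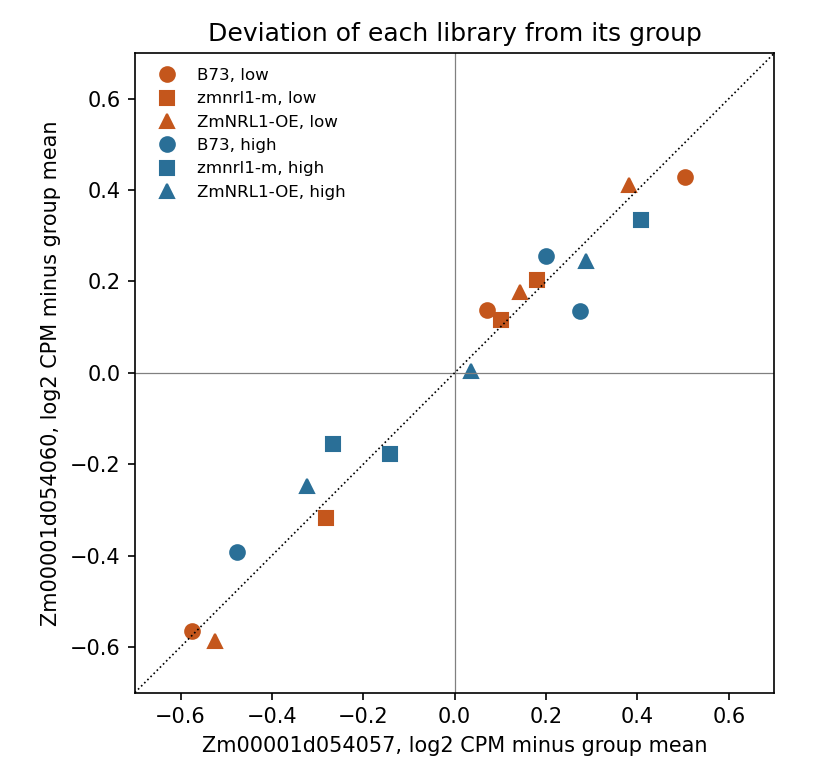
Deviation of each library from its group mean in log2 CPM for Zm00001d054057 (horizontal axis) and Zm00001d054060 (vertical axis), with colour for nitrate supply and symbol for genotype; the dotted line marks equal deviations. All 18 points lie in the quadrants where both genes deviate to the same side, within 0.14 of the line of equal deviations as measured along either axis.

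The genes most alike in pattern to each member were looked up over the 18 libraries. By Pearson's r of log2 CPM over the 18 libraries, among 23574 genes with a mean of at least 1 CPM, the genes most like Zm00001d054057 were Zm00001d032692 (r = 0.955) and Zm00001d040567 (r = 0.951). Those most like Zm00001d054060 were Zm00001d031926 (r = 0.960) and Zm00001d029448 (r = 0.955). The 2 members had r = 0.878 with each other, which placed Zm00001d054060 at rank 65 for Zm00001d054057 and Zm00001d054057 at rank 78 for Zm00001d054060. By Spearman's rho the 2 members had 0.593 with each other, at ranks 1814 and 2798, and by Pearson's r of the 6 group means 0.870, at ranks 550 and 675. The genes named as most alike also moved in rank. By Spearman's rho Zm00001d029448 moved to 690, Zm00001d031926 to 159 and Zm00001d040567 to 37, while Zm00001d032692 stayed at 1. By Pearson's r of the 6 group means Zm00001d032692 moved to 35, Zm00001d040567 to 61, Zm00001d031926 to 12 and Zm00001d029448 to 5. These values are a description, with no test, since they pool the 6 groups and the genes share libraries. The likeness is one of pattern and not of size. In B73, Zm00001d032692 stood at 34.7 ± 1.72 CPM under high and 71.2 ± 9.53 CPM under low nitrate, against 39.9 ± 5.93 and 58.2 ± 7.63 CPM in the mutant (SD, n = 3). Zm00001d031926 had 18.8 ± 5.68 and 47.8 ± 9.49 CPM in B73 under high and low supply, against 16.9 ± 2.64 and 21.3 ± 7.0 CPM in the mutant. Zm00001d032692 and Zm00001d040567 were called for a rise at low nitrate in zmnrl1-m, where 17.9% of tested genes were called in either direction. Their log2 fold changes were 0.54 ± 0.13 and 0.46 ± 0.12 (SE, edgeR adjusted p of 0.00861 and 0.0128). Zm00001d054057 was not called in zmnrl1-m, but its fitted change was larger with a wider SE, 0.62 ± 0.28. The genes were not tested against each other. Zm00001d031926 and Zm00001d029448 were not called there (edgeR adjusted p of 0.444 and 0.333). No names are given for these genes in the sources used here.

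Rows numbered close to the pair were also looked up. Of 17 other rows whose identifier number lay within 10 of a member, 3 had 0 counts in all libraries and 11 were tested. In B73 their log2 fold changes for nitrate supply lay between -0.62 and 0.73, with edgeR adjusted p of 0.0606 to 0.998. Of the 11, 2 were called in zmnrl1-m and 4 in ZmNRL1-OE, where 17.9% and 23.9% of all tested genes were called. The only call with a change of at least 2-fold was Zm00001d054062 in ZmNRL1-OE, with a log2 fold change of 1.26 and an edgeR adjusted p of 0.00914. Other genes of nitrate uptake and assimilation were not analysed here, because no source used here ties their names to identifiers.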

How the data were processed

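The deposited count table holds whole-number read counts per gene made by the authors, and the deposited FPKM table holds the authors' values per gene length and library size. The submitters' processing notes list featureCounts 2.0.1, HISAT2 2.2.1, Trim Galore 1.18 and bcl2fastq 2.19.1, and the genome build B73 RefGen_v4. The strand setting and the handling of multi-mapping reads were not given in the sources used here. From the counts, genes passing filterByExpr (minimum count 10; 27134 of 41632) were TMM-scaled and fitted with edgeR 4.0.16 (R 4.3.3) by glmQLFit and glmQLFTest. The fit had one mean per group over all 18 libraries and Benjamini-Hochberg adjustment over all genes. SE is the size of the log2 fold change over the square root of F. Summed reads replaced the rows of both genes in a second fit. Ratios of counts were tested by exact permutation in Python 3.11.15. The procedures were tested on simulated data. Genes alike in pattern were the 2 with the highest r for each member, and rows near by identifier were those within 10.

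Same-numbered libraries of B73 at low and high nitrate deviated together (r = 0.41, 0.12 and 0.26, above the limit of 0.1), which pairs them by the data, not by the labels. In every other comparison of 2 groups at least 1 correlation was under 0.1. Chi-square per degree of freedom between the 18 pairs of replicate libraries was 7.80 to 25.6, so no library was counted as a copy of another. The members, comparisons and rules were chosen with earlier results of these data known. Alternatives were other scalings and filters, DESeq2 1.42.0, limma 3.58.1 on log2(FPKM + 1) and log2(FPKM + 0.1), fits of the compared groups alone, a replicate block, summed reads and leaving out each library.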

Additional observations from a re-analysis of the deposited data

Results flagged for a closer look

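Both genes had nitrate responses that differed between genotypes in the test of the difference itself. For Zm00001d054057 the log2 response differed by -1.92 between zmnrl1-m and B73 and by 2.41 between ZmNRL1-OE and zmnrl1-m. For Zm00001d054060 the differences were -1.68 and 2.55. The edgeR adjusted p were 0.015 and 0.00452 for the first gene and 0.0204 and 0.00321 for the second, and both contrasts use the zmnrl1-m libraries. Of all tested genes 8.93% and 16.4% were called in the 2 contrasts. The call of Zm00001d054060 between zmnrl1-m and B73 was lost in 3 of 18 fits that left out 1 library, at adjusted p of 0.0559 without low-nitrate replicate 3 of B73, 0.0615 without low-nitrate replicate 3 of zmnrl1-m and 0.0583 when high-nitrate replicate 2 of that line was left out.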

How the results depend on the processing

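Of 794 recomputed values for 30 tested results, 775 kept their direction and their side of the threshold. This tally includes settings that could hardly move a value. A library outside the groups compared enters only through the shared spread, the scaling and the filter. Zm00001d054057 in B73 thus stayed at 2.54 without low-nitrate replicate 1 of zmnrl1-m. The ratio of FPKM repeats the ratio of counts, since both genes have the same implied length. With 1 library left out, the log2 difference in response between zmnrl1-m and B73 for Zm00001d054060 ranged from -1.92 to -1.46 and lost its call in 3 of 18 cases. All 3 left out a library of these genotypes, while the 18 include ZmNRL1-OE libraries outside the contrast. With 1 library left out, the log2 difference of ZmNRL1-OE against zmnrl1-m at high nitrate for Zm00001d054060 ranged from 0.52 to 0.82 and gained a call in 3. Uncalled values changed sign in such cases: Zm00001d054060 in zmnrl1-m for nitrate supply (-0.0063 to 0.29) and Zm00001d054057 for ZmNRL1-OE against B73 at high nitrate (-0.27 to 0.084). For ZmNRL1-OE against zmnrl1-m at high nitrate, Zm00001d054060 gained a call with library totals alone (0.70), with DESeq2 (0.63) and with only the groups compared (0.63), and Zm00001d054057 with only the groups compared (-0.59). Summed reads gave a call for ZmNRL1-OE against B73 at low nitrate (0.80) where Zm00001d054057 alone had none. Against single genes the sum turned the sign at high nitrate for zmnrl1-m against B73 (0.12, Zm00001d054060), ZmNRL1-OE against B73 (0.16, Zm00001d054057) and ZmNRL1-OE against zmnrl1-m (0.037, Zm00001d054057). It also turned that of B73 at high against zmnrl1-m at low nitrate (-0.56, Zm00001d054060), since the sum adds the partner's reads. The cause of the other changes was not tested.

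The replicate block changed no call of the 2 genes. The block gave each replicate number a common effect in all genotypes, so a pairing within B73 alone was not fitted. With this block, the log2 fold changes in B73 were 2.54 and 1.78 (edgeR adjusted p of 0.000125 and 0.00127). Outside B73 the correlations over all genes gave no evidence of pairing. In ZmNRL1-OE, however, the deviations of Zm00001d054057 followed the replicate number. In replicates 1 to 3 they were 0.38, -0.53 and 0.14 at low and 0.29, -0.32 and 0.036 at high nitrate. In replicates 1 to 3 of zmnrl1-m, this gene deviated by 0.10, 0.18 and -0.28 at low and -0.27, 0.41 and -0.14 at high nitrate. Only replicate 1 of zmnrl1-m changed sign between the supplies. The block moved the count of genes called for the difference between zmnrl1-m and B73 from 2424 to 1569. DESeq2 called 4150 there, and leaving out 1 library gave 546 to 3314. For the difference between ZmNRL1-OE and B73, 13 genes were called, 4 to 22 with 1 library left out and 6 to 104 under the other settings. The count for ZmNRL1-OE minus zmnrl1-m (4463) ranged from 1685 to 5567 without 1 library. The nitrate response counts of 3998 for B73, 4846 for zmnrl1-m and 6498 for ZmNRL1-OE fell as low as 2054, 2915 and 3251. The 3 libraries a group limit what the uncalled differences can show.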
